A study of Mus musculus with 4 samples.

Results

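Most trimethylation of lysine 4 on histone H3 (H3K4me3) lies at annotated transcription starts. The regions described here lie away from them: intergenic H3K4me3 peaks 5 to 50 kb from the nearest protein-coding start, in mouse cerebral cortex. Members were the peaks of the replicated list that overlapped no gene body of GENCODE release M21 of any kind and no window of 1000 bases either side of any annotated transcript start, and whose nearest edge was over 5 kb and up to 50 kb from the closest start of a protein-coding gene. Of 25446 peaks, 1660 met this rule, or 6.52%. The rule used positions and no enrichment value. A wide peak reaches a gene or a start window more easily, and the replicated list was itself called on both pools, so width and overlap between the pools are given as descriptions.

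The mice were female B6CASTF1/J, the hybrid of the C57BL/6J and CAST/EiJ strains, aged 2 months, with no treatment named, and the tissue was their left cerebral cortex. There were 4 libraries, 2 technical replicates of each of 2 pools, and each pool held 4 biosamples. Pool J was biological replicate 1 and pool I biological replicate 2, and there was 1 peak list for a pool's libraries together. Whether the biosamples were from different animals is not in the labels, and the spread over the pools may be technical. The tissue was a mix of cell types, and more cells with the mark and more of the mark in each cell cannot be told apart. As a check of the label, the promoters of 6 of 6 excitatory neuron markers (such as Slc17a7 and Camk2a), 4 of 4 inhibitory, 4 of 4 astrocyte and 3 of 3 endothelial markers carried a replicated peak. So did 3 of 4 microglia markers (not P2ry12) and 1 of 3 of choroid plexus (Kl, not Ttr or Folr1).

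H3K4me3 is written by the SET1 and MLL methyltransferase complexes, which are drawn to DNA with unmethylated CpG, and is read by proteins of the transcription machinery. Promoters of RNA polymerase II carry it downstream of the start site, while distal enhancers are better known for monomethylation of the same lysine. A peak far from any annotated gene can lie at an unannotated start, at a strong enhancer, or at a gene that the annotation leaves out. The transfer RNA (tRNA) genes are such a case: they are short, are transcribed by RNA polymerase III from promoter elements inside the gene (the A box and the B box), and the gene models behind the rule do not hold them. RefSeq, on the same assembly, annotates 403 tRNA genes.

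Many of the members of highest enrichment overlapped such tRNA genes, so 5 of these genes are printed first. They are, by descending enrichment of the member, the gene nearest to its highest point for each amino acid not yet shown, among genes that hold the B box core. Sequences are those of the RefSeq mm10 assembly, 5′ to 3′ on the strand of the gene. Capitals mark a match to the B box core, searched as GTTCGANNC on the strand of the gene.
n-TIaat17 (tRNA-Ile, chr17:83861944-83862036, + strand): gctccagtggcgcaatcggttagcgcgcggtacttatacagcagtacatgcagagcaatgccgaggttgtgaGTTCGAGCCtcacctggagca
n-TLcaa1 (tRNA-Leu, chr13:21200204-21200308, + strand): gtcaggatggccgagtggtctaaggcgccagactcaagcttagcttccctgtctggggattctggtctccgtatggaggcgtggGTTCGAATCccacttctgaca
n-TGtcc2 (tRNA-Gly, chr1:171037997-171038068, - strand): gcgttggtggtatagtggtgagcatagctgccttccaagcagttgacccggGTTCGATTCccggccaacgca
n-TDgtc4 (tRNA-Asp, chr1:171037029-171037100, - strand): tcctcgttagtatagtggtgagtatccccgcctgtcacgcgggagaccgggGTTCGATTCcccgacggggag
n-TKctt14 (tRNA-Lys, chr17:23547360-23547432, + strand): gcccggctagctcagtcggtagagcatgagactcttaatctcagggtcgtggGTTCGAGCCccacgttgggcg

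These genes are 72 to 105 bases long, and the member around each was 1556 to 2452 bases wide. The core was present in 61 of the 82 tRNA genes met by a member, or 74.4% (95% Wilson interval 64.0 to 82.6, for counting error only, as for all intervals here). It was present in 106 of the 203 tRNA genes with no replicated peak anywhere, or 52.2% (45.4 to 59.0). Among tRNA genes in intergenic sequence 5 to 50 kb out, 71 of 99 with a replicated peak held it, or 71.7% (62.2 to 79.6). Of those there with no replicated peak, 36 of 68 did, or 52.9% (41.2 to 64.3). These groups differ in amino acid, since only 4 of 57 cysteine tRNA genes met a replicated peak. The core was not counted by amino acid, so the shares cannot be compared at like make-up. On the given strand of 32851 RefSeq promoters of 300 bases it was found in 0.417%. A match is a description of the letters and no measure of binding.

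Another 6 members show how far the sequence under the mark varied away from tRNA genes. Each line gives 200 bases around the highest point of the peak on the + strand of mm10, with every CpG in capitals, under the name of the nearest coding gene. The member nearest Rbx1 was the strongest with no RefSeq feature, and that nearest Pax2 had the highest CpG ratio among those at least 300 bases wide. The members nearest Fos, Nr4a1 and Arc, genes switched on by neuronal activity, were the strongest of each gene. The member nearest Nr1d1, a circadian repressor, was the weakest met in both pools among the tenth of members with the lowest CpG ratio.
Rbx1 (chr15:81523061-81523260): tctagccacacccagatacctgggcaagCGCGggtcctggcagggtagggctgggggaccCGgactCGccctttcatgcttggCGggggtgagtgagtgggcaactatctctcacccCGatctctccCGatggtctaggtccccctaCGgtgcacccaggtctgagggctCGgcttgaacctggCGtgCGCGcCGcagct
Pax2 (chr19:44726376-44726575): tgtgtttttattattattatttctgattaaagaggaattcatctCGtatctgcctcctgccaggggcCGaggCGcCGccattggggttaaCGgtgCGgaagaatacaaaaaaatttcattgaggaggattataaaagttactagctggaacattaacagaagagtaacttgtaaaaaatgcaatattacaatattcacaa
Fos (chr12:85486160-85486359): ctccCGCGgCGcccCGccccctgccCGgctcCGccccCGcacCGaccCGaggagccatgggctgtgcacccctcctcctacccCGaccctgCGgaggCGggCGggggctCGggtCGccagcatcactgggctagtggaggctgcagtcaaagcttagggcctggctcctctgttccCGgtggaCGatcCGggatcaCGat
Nr4a1 (chr15:101246561-101246760): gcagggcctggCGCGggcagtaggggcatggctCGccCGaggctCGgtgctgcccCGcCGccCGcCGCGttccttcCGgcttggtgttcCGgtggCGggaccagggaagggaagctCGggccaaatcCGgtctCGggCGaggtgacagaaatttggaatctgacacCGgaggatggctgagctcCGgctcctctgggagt
Arc (chr15:74679348-74679547): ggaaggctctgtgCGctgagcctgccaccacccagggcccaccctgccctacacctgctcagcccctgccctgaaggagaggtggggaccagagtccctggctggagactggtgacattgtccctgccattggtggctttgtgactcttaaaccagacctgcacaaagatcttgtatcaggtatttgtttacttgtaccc
Nr1d1 (chr11:98783789-98783988): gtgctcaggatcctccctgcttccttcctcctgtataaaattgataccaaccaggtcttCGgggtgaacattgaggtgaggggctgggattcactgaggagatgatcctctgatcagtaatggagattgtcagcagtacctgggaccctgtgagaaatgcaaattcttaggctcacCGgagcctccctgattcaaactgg

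The windows near Fos and Nr4a1 each held 19 CpG, that near Rbx1 13, that near Pax2 6, that near Nr1d1 2 and that near Arc 1. Order by enrichment did not follow the number of CpG at each step. The Rbx1 member had an enrichment of 23.5, the Fos member 18.2, the Nr4a1 member 15.9, the Arc member 4.63, the Pax2 member 3.71 and the Nr1d1 member 2.93. The GC box, GGGCGG on either strand, was in the Fos and Nr4a1 windows.

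Members were weaker and narrower than the peaks at annotated starts. Their median width was 541.5 bases (quartiles 348 and 838), against 1683.5 for 17464 peaks at a start. Enrichment is the authors' value for each peak, taken as fold over a control, and its median was 4.77 (quartiles 3.49 and 7.81, range 1.80 to 27.8) against 17.5 at starts. Only 60 members, 3.61%, reached the median of peaks at starts. Against the other peaks outside start windows, members lay at the upper end, close to intergenic peaks less than 5 kb out. The median was 3.45 for 3584 intronic peaks, 4.05 for 1128 exonic peaks, 4.05 for 1257 intergenic peaks more than 50 kb out and 4.69 for 353 intergenic peaks less than 5 kb out. Members had a median of 5.77 in the list of pool J and 5.52 in that of pool I, on average 5.65 ± 0.181 (SD over n = 2 pools). Intronic peaks had 4.33 and 3.99, and intergenic peaks more than 50 kb out 4.95 and 4.75, so members stood above both in each pool. Exonic peaks had 4.98 and 4.65. Intergenic peaks less than 5 kb out had 5.58 and 5.32, only a little below the members.

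Of the members, 1102 were met by a peak in both pool lists with at least 1 base, or 66.4% (64.1 to 68.6). Over the whole replicated list this share was 80.1%, and over intronic peaks 45.9%. Pool J alone met 74 members and pool I alone 275, and 209, or 12.6%, were met in neither. The members met in neither pool had a median enrichment of 2.93 and a median width of 266 bases, against 6.52 and 708 bases for those met in both. A −log10 q of at least 10 was held by 893 members, 53.8%, against 71.4% of the whole list, and 868 of these 893 were met in both pools. Weak members therefore made up most of what the pools did not share.

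For the 1102 members met in both pools, the 2 values lay close together. Pool J gave them a median enrichment of 6.17 and pool I one of 7.03, with a ratio of at most 1.5 between the pools at 88.9%. Beyond that ratio, pool I was higher at 98 members and pool J at 24. Across these members Spearman's rho between the pools was 0.867 for enrichment and 0.818 for width. The points share the antibody and the genome, and some neighbouring members share 1 pool peak.

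**Figure D1:**
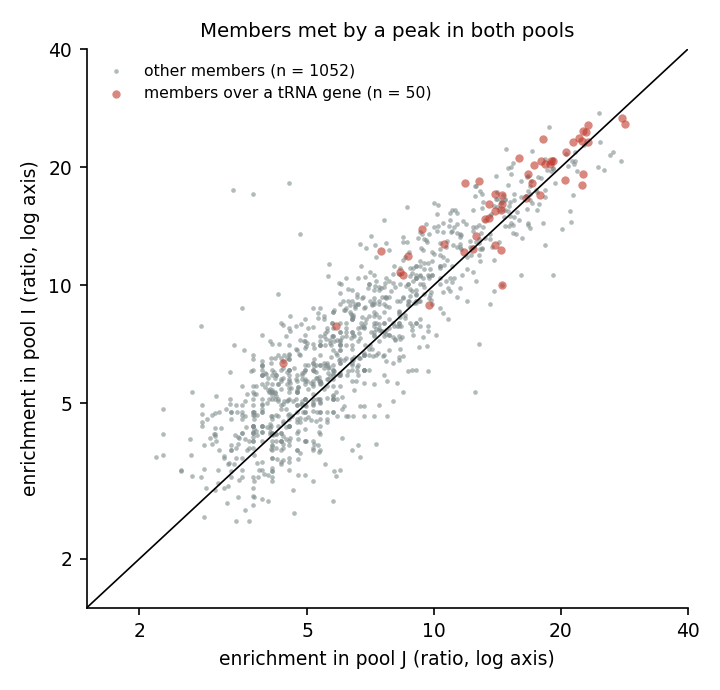
Enrichment (ratio, log axes) of the members met by a peak in both pool lists, with pool J on the x axis and pool I on the y axis. Each point is 1 member, red where it overlaps a RefSeq tRNA gene (n = 50) and grey otherwise (n = 1052), and the line marks equal values. Points lie along the line, a little above it on balance, and the red points lie mostly in its upper part.

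RefSeq features divided the members into unequal groups. Of 1660, 52 overlapped a tRNA gene, or 3.13% (2.40 to 4.08), where 0.515% of all replicated peaks did so. The share was 3.12%, 11 of 353, in intergenic peaks less than 5 kb out. A further 187 lay within 1000 bases of a RefSeq transcript start that GENCODE does not have, and 163 overlapped only a RefSeq gene body. The other 1258, or 75.8%, met none of these and are called members with no feature. Enhancers recorded by RefSeq were not used in this division, so some of the 1258 overlapped one. Members over a tRNA gene were counted there first, also where such a start was near. With them included, 199 members lay within 1000 bases of such a start. Members over tRNA genes had a median enrichment of 15.3 (quartiles 11.9 and 20.2) and a median width of 1673 bases. For those at another start the medians were 5.28 and 639 bases, and for those with no feature 4.56 and 512 bases. In the pool lists the values of the tRNA members had a median of 15.2 (pool J) and 17.6 (pool I), against 5.68 and 5.77 for members with no feature. The groups overlapped, since members over tRNA genes went down to 4.56 and 24 members with no feature reached the median of peaks at starts.

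**Figure D2:**
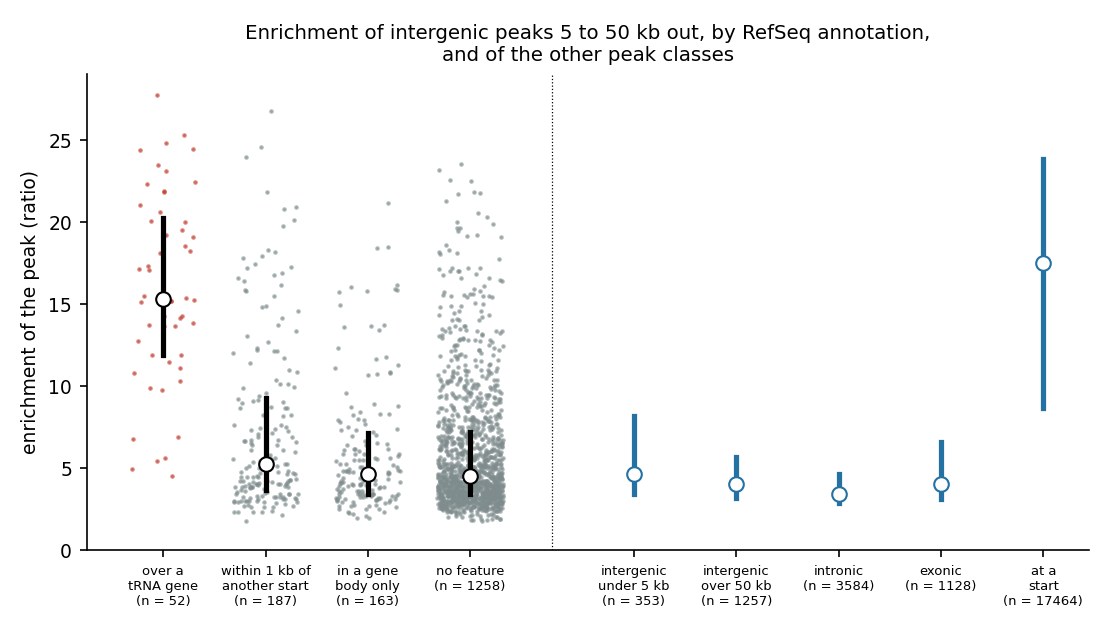
Enrichment (ratio) of the members by RefSeq feature, left of the dotted line, and of the other classes of replicated peaks, right of it. Small points are single members, open circles medians and thick bars the range between quartiles. Members over a recorded enhancer alone count as having no feature. The 52 members over tRNA genes, with a median of 15.3, lie nearest to the peaks at starts, with 17.5.

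tRNA genes held 6 of the 10 members of highest enrichment, 19 of the highest 50 and 24 of the highest 100. The strongest of all lay 18006 bases upstream of Wnt11, which encodes a secreted signalling protein, at chr7:98814378-98817106. It overlapped 2 tRNA genes and also lay within 1000 bases of the start of Gm39054, a noncoding RNA of RefSeq. Its enrichment was 27.8, with pool J at 28.5 and pool I at 25.8. Next among tRNA members was one upstream of Haao, an enzyme gene of tryptophan breakdown, with 25.3 (pool J 27.9, pool I 26.6), and one downstream of Trim27, with 24.8 (23.0 and 24.6). Both pools placed each of these above the median of peaks at starts. The widest member of all, 4226 bases at chr3:96499145-96503370 upstream of Hfe2, covered 4 tRNA genes, with an enrichment of 23.1, and pool J gave it 4122 bases and pool I 4294.

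Of the 52 tRNA members, 35 held 1 tRNA gene and 17 held 2 to 5, for 82 genes of 18 kinds in all. 50 of the 52 were met in both pools, and the other two in pool I alone. Over the 82 pairs of a tRNA gene and its member, the middle of the gene lay a median of 315 bases from the peak's highest point (quartiles 238.5 and 465). Where a member held several genes, each was measured to the same point. The value is therefore not the distance to the closest tRNA gene. Seen from the tRNA genes, 167 of the 403 lay in intergenic sequence that meets the rule for position, and 99 of them, 59.3% (51.7 to 66.4), overlapped a replicated peak. With the list of pool J the share was 56.3% and with that of pool I 61.1%, on average 58.7% ± 3.39 (SD over n = 2 pools). Over all 403 it was 49.6%. tRNA genes exist in near-identical copies, and how reads that match several places were treated is not given in the sources used here.

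The mark was uneven among tRNA genes of different amino acids. Any replicated peak was met by 14 of 17 threonine and 18 of 25 leucine tRNA genes. Leucine tRNA genes had the most under members, 12 of 25, followed by 8 of 33 for alanine and 7 of 16 for proline. Phenylalanine had 4 of 7. The number under members also depends on how many genes of a kind lie in sequence that meets the rule. That number was not counted by amino acid. Cysteine tRNA genes, the largest group with 57, had 4 under any replicated peak and 0 under a member. Tyrosine genes had 5 of 10 under a replicated peak and 0 under a member.

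**Figure D3:**
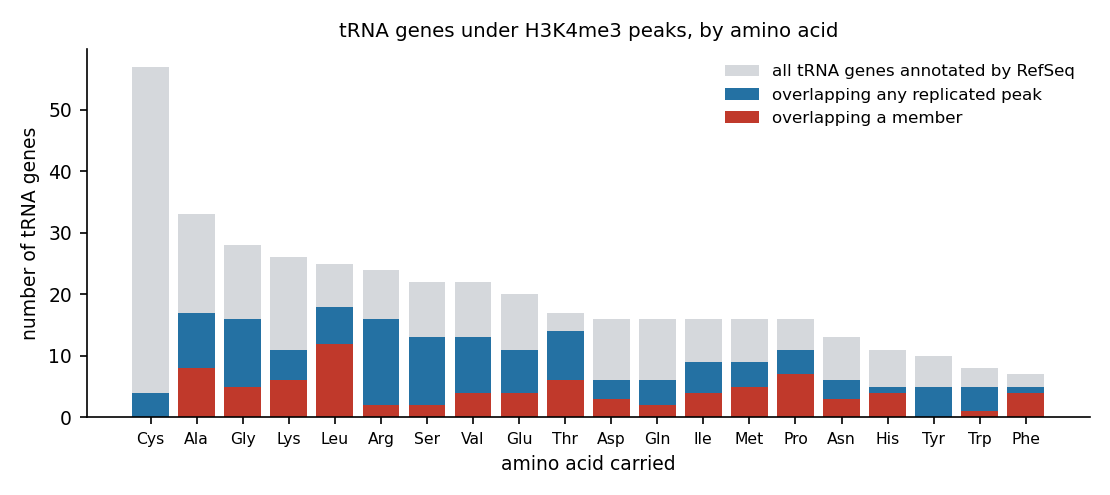
Number of RefSeq tRNA genes by the amino acid they carry. Grey bars are all genes, blue bars those overlapping any replicated peak and red bars those overlapping a member, drawn over each other from 0. Leucine has the highest red bar, with 12 genes, and cysteine has a blue bar of 4 genes out of 57.

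A large share of the tRNA members lay together, 21 of 52 on chromosome 13. How many of all 403 tRNA genes lie on chromosome 13 was not counted. No leaning of the members to that chromosome can therefore be read from this share. On chromosome 13 Gpx5, a glutathione peroxidase gene of the epididymis, was the coding gene nearest to most members, 8, of which 5 overlapped a tRNA gene. Trim27, beside it, had 7, of which 5 did so, in a stretch from 21166694 to 21234931. Their enrichments ran from 2.93 to 15.3 near Gpx5 and from 5.60 to 24.8 near Trim27. Of the 7 members near Zfp184, 1 overlapped a tRNA gene, and their enrichments were lower, 2.79 to 5.62. Psd2 with 6 members (5.51 to 13.1) and Tex44 with 5 (4.05 to 18.2) had none over a tRNA gene. Most of the 1321 nearest genes, 1074, had 1 member.

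Strong members without a tRNA gene lay partly at starts of long noncoding RNAs known to RefSeq alone. The second strongest member, chr1:180777321-180778796, was 34738 bases downstream of H3f3a, a gene of histone variant H3.3, at the start of the noncoding RNA 2900024J01Rik. Its enrichment was 26.8, with pool J at 24.7 and pool I at 27.6. A member 41454 bases upstream of Chd7, which encodes a chromatin remodeller, had 24.6 (pool J 26.6, pool I 21.8) at the start of Gm8273, with a CpG ratio of 0.913. A member downstream of Cdk12, a kinase gene of transcription elongation, had 24.0 (24.7 and 23.3) at the start of Gm31194. Each of the 3 reached the enrichment of a typical promoter peak in both pools.

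Other strong members met no RefSeq feature. The member printed above near Rbx1, a ubiquitin ligase subunit gene, had 23.5 (pool J 24.4, pool I 20.1) and was 48435 bases downstream of its start. It was followed by members near Pum2, which encodes an RNA-binding repressor (23.2, with pool J at 27.7 and pool I at 20.8), Cbx8, of the Polycomb group (22.5, with 25.4 and 19.7), and Ptma (22.5, with 18.7 and 25.4). Of the Pum2 member, 51.5% was sequence that the reference masks as repeats, against a median of 8.57% over members. Pool J was higher at Rbx1, Pum2 and Cbx8 and pool I at Ptma, by less than 1.5 times at each. Near Bahcc1 a member had 21.8 (20.6 and 21.7), and near Dmbx1, a homeobox gene, another had 21.8 (21.2 and 20.8).

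Width followed enrichment, with a Spearman's rho of 0.717 across the 1660 members, both measures coming from the same peak call. Among the 10 widest, 7 overlapped tRNA genes. The other three lay near Ccr1, a chemokine receptor gene (2881 bases), near Pou3f2, a transcription factor gene of upper cortical layers (2791 bases), and near Klrb1b, a natural killer cell receptor gene (2693 bases). At Pou3f2 the pools differed, with pool J at 1694 bases and pool I at 3964, where 1 peak of pool I also spanned 2 neighbouring members of 645 and 304 bases. At Ccr1 they were 2987 and 2884 bases, and at Klrb1b 2697 and 2671.

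RefSeq also records enhancers tested in experiments, and 37 members, 2.23% (1.62 to 3.06), overlapped one, where 0.613% of all replicated peaks did so. The share was 1.40% (1.06 to 1.83) for intronic peaks and 1.35% (0.846 to 2.16) for intergenic peaks more than 50 kb out. Both intervals overlap that of the members. For intergenic peaks less than 5 kb out it was 0.850%, for exonic peaks 0.266% and for peaks at starts 0.263%. Of 180 such enhancers in sequence that meets the rule for position, 32 overlapped a replicated peak, or 17.8% (12.9 to 24.0), with pool J at 28 and pool I at 30. Of all 1019 recorded enhancers, wherever they lie, 166 did so, or 16.3% (14.2 to 18.7). The members met 29 elements of the VISTA collection, which tests fragments in transgenic mouse embryos. Hindbrain activity was recorded for 15 of these elements, midbrain for 13, neural tube for 10, forebrain for 8, heart for 7 and limb for 5. Some elements had several tissues. The share of each tissue over the whole collection was not counted. No leaning of the members to a tissue can therefore be read from these counts. A member near Bhlhe41, a circadian repressor gene, with an enrichment of 6.39 (pool J 4.37, pool I 7.90), overlapped one recorded as active in forebrain. The member upstream of Fos overlapped one recorded for heart.

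Genes switched on by neuronal activity had members at 12 of 29, or 41.4% (25.5 to 59.3), where 6.02% of all coding genes were nearest to a member. All 29 carried a promoter peak, as 65.2% of coding genes did, and they had more intergenic sequence around them, a median of 30.3 kb against 9.04 kb. Counted per sequence, 21 members in 1.05 Mb gave 20.0 per Mb, against 4.16 over all coding genes and 5.61 over the 14293 with a promoter peak. Their median enrichment, 4.77, was that of all members, and 6 of the 21 lay among the strongest 25% of members, from 7.81 up. 16 of the 21 were met in both pools.

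Fos, the immediate early transcription factor gene, had 3 members. One lay 10191 bases downstream at chr12:85485102-85487427, 2326 bases wide, with an enrichment of 18.2 (pool J 17.4, pool I 17.5). Another, 17603 bases upstream at chr12:85454826-85456287, had 15.8 (pool J 14.8, pool I 15.5). Both were as strong in one pool as in the other. The third, 12676 bases downstream, had 4.21, and pool I joined it to its stronger neighbour in 1 peak of 2899 bases. Nr4a1, a nuclear receptor gene of the same response, had 3 members upstream. The one at 7059 bases had 15.9 (pool J 16.7, pool I 14.2), that at 12655 bases 8.57 (8.37 and 7.86), and that at 14795 bases 3.03, met in pool I alone with 4.18. Enrichment at Nr4a1 thus fell with each step away from the gene, which it did not at Fos.

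Egr1, a zinc finger gene of the same group, had a member 25705 bases downstream with 15.5 (pool J 14.4, pool I 16.2), and another with 2.40 that was met in neither pool. A member 16250 bases downstream of Klf4 had 16.5 (12.9 and 17.4). Btg2, an antiproliferative gene, had members of 7.00, 6.55 and 2.41, the last met in neither pool. Members near Scg2, a neuropeptide precursor gene, had 7.79 (6.87 and 8.78), near Nr4a2 4.97 (4.54 and 5.89) and near Ier2 4.77 (4.54 and 5.32). All 3 were met in both pools. Arc, which encodes a synaptic protein, had a member 6772 bases upstream at chr15:74679342-74679879, with 4.63 (pool J 5.36, pool I 4.37). Gadd45b had members of 4.77 and 3.97, Npas4 of 3.99 and 2.98 and Egr4 one of 2.47. The weaker member of Npas4 and that of Egr4 were met in pool I alone.

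Among the other lists, genes of the circadian clock had members at 5 of 16 (20.0 per Mb, the strongest near Bhlhe40 with 11.9) and transcription factors of the cortex at 8 of 25 (12.9 per Mb). The strongest of the latter were near Pou3f2 (12.8) and Id3 (8.96). Excitatory neuron genes had members at 4 of 17, 15.5 per Mb, with 2 members near Neurod2 of 15.0 and 6.76. Astrocyte genes had 3 of 13, 13.4 per Mb, with 10.5 near the glutamate transporter gene Slc1a3 and 10.1 near Fgfr3. Inhibitory neuron genes had 3 of 16, 5.98 per Mb, with 16.6 upstream of Dlx2, a homeobox gene of interneurons, and 6.47 near Sst. The Dlx2 member had 15.5 in pool J and 17.1 in pool I, while that near Sst had 4.83 and 7.98. Met in both pools were 4 of 8 excitatory, 3 of 5 astrocyte and 2 of 3 inhibitory members. For circadian genes it was 7 of 7 and for cortical transcription factors 11 of 12. Median enrichment of the excitatory members was 4.77, that of all members.

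Glial and vascular lists rested on few members. Oligodendrocyte genes had 1 of 13, 3.95 per Mb. That member lay 5022 bases upstream of Mog, a myelin gene, with 16.8 (pool J 16.7, pool I 17.3). Precursors had 1 of 7 (8.45 per Mb), near Neu4, with 8.77, and microglia 2 of 12 (10.4 per Mb), with 5.96 near Sall1. Endothelial genes had 2 of 13 (8.59 per Mb), with 4 members. Those of 3.39 near Cldn5 and 3.34 near Flt1 met no peak in a pool list, while Flt1 had 2 more, of 3.17 (pool J 5.57, pool I 4.56) and of 2.84, met in pool I alone with 2.81. Synaptic genes had 2 of 24, 6.07 per Mb, with 7.70 and 6.20 near Nlgn3. Housekeeping genes had 2 of 15 (8.41 per Mb), near Actb (11.0) and Eef1a1 (8.41). Glucocorticoid-responsive genes had 1 of 10 (2.62 per Mb), near Sgk1 (3.21). The housekeeping density was above those of synaptic and inhibitory neuron genes, 6.07 and 5.98 per Mb. It was below those of excitatory neuron and astrocyte genes, 15.5 and 13.4 per Mb. Genes of other tissues had 0 of 15, and 2 of these 15 had a promoter peak. With counts this small the intervals overlap: 14.2 to 55.6% for circadian genes, 17.2 to 51.6% for cortical transcription factors and 0 to 20.4% for other tissues.

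**Figure D4:**
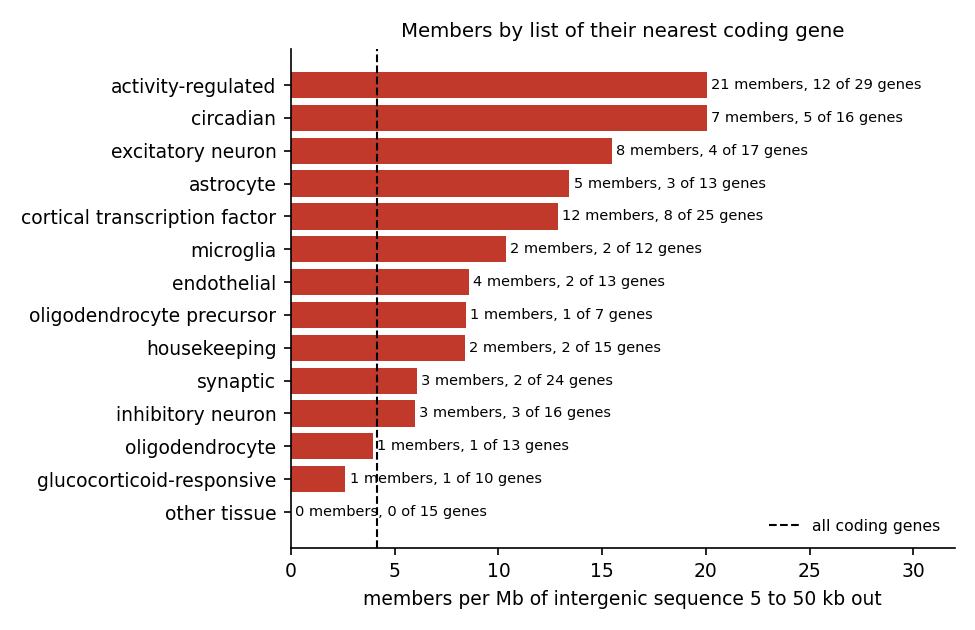
Members per Mb of intergenic sequence 5 to 50 kb from the genes of each list, with bars from 0. The number of members and of genes nearest to one stands beside each bar, and the dashed line is the value over all coding genes, 4.16 per Mb. Activity-regulated and circadian genes stand highest, at 20.0 per Mb, and many bars rest on 5 or fewer members.

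Genes nearest to a member were more often marked at their own promoter. Of these 1321 genes, 1088, or 82.4% (80.2 to 84.3), carried a promoter peak, against 65.2% of coding genes. Intergenic sequence around coding genes with a promoter peak held 5.61 members per Mb, and that around genes without one 1.88. The widest promoter peak had a median of 2163.5 bases at the marked genes nearest to a member and 1966 at the other marked genes. Enrichment of the member itself differed little with the state of the promoter, at a median of 4.69 for the 1368 members near a marked gene and 4.98 for the other 292.

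Members thinned out with distance. Sequence that could hold a member totalled 398.9 Mb, and density was 4.39 per Mb at 5 to 10 kb, 4.51 at 10 to 20 kb, 4.01 at 20 to 35 kb and 3.70 at 35 to 50 kb. Beyond the rule it was 5.40 at up to 5 kb, 2.74 at 50 to 100 kb and 1.01 farther out. Median enrichment went from 5.23 to 4.97, 4.46 and 4.37 over the 4 bins of members, while the quartiles overlapped in all of them. Upstream of the nearest coding gene lay 969 members, 58.4% (56.0 to 60.7), but more sequence lies upstream by this measure. Per Mb there were 3.85 members upstream and 4.70 downstream, with near-equal median enrichments of 4.77 and 4.75.

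**Figure D5:**
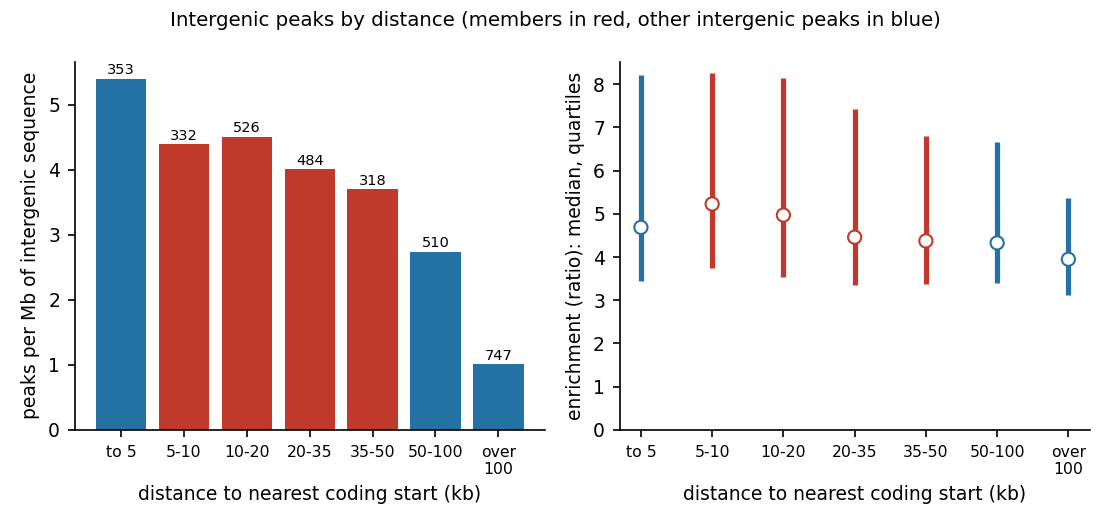
Left, intergenic peaks per Mb of intergenic sequence by distance to the nearest coding start, with bars from 0 and the number of peaks above each. Right, median (circle) and quartiles (line) of enrichment (ratio) in the same bins. Members are red and other intergenic peaks blue. Density falls from 4.51 per Mb at 10 to 20 kb to 1.01 beyond 100 kb.

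The 3 members just inside the lower bound were near Atoh1 (5016 bases, enrichment 7.32), Mog (5022 bases, 16.8) and Zfp362 (5066 bases, 16.4). Just outside lay peaks near Rexo1 (4999 bases, 4.05), Sh2b3 (4969 bases, 13.3) and Tfpi (4963 bases, 4.75). At the upper bound the last members were near Jrkl (49859 bases, 4.15), Slc38a11 (49847 bases, 8.17) and Mettl8 (49842 bases, 3.03), and the next peaks near Hey1 (50017 bases, 4.53), Tob1 (50102 bases, 3.75) and Zfp873 (50210 bases, 6.40).

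Chromosomes differed in density. It was 8.59 per Mb on chromosome 11, with 165 members, and 7.09 on chromosome 15, and at most 6.06 on the other autosomes. The X chromosome had 29 members, 0.897 per Mb, with a median enrichment of 6.20. The Y chromosome, absent from the genome of female animals, had 1 member, near Gm21860 at chrY:90744322-90744830, 999868 bases from its end. It had an enrichment of 3.41 and was met in neither pool list.

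Members lay between peaks at starts and intronic peaks in base composition. Their median GC content was 51.7% and their median ratio of observed to expected CpG 0.481, against 0.597 for peaks at starts and 0.345 for intronic peaks. The 3 ratios kept that order in pool J (0.494, 0.614 and 0.363) as in pool I (0.475, 0.593 and 0.341). Other classes lay near the members, with 0.474 for intergenic peaks more than 50 kb out, 0.496 for those less than 5 kb out and 0.508 for exonic peaks. With GC of at least 50% and a ratio of at least 0.6 counted as CpG-rich, 277 members were so, 16.7% (15.0 to 18.6), against 33.2% of all replicated peaks and 42.8% of those at starts. The share was 4.69% for intronic and 30.3% for exonic peaks. For intergenic peaks it was 9.23% more than 50 kb out and 21.0% less than 5 kb out. CpG-rich members had a median enrichment of 6.77 and a median width of 652 bases, and the other members 4.53 and 520. With members split by CpG ratio into 5 groups of 332, from the lowest up, the median enrichment was 3.82, 4.71, 5.01, 5.61 and 5.74, and the share met in both pools 48.5, 66.9, 71.4, 74.7 and 70.5%. The relation across members was weak, with a Spearman's rho of 0.254, or 0.219 without those over tRNA genes.

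Of the tRNA members, 5 of 52 counted as CpG-rich. Their median GC content was 46.2% and their median CpG ratio 0.648. At the other end, the member near Pax2 was met in neither pool in spite of its ratio. Foxd1, Ahdc1 and Akap1 were the nearest genes of 3 others with high ratios, 0.992, 0.981 and 0.948, and enrichments of 2.54, 7.53 and 4.51. None of these 4 reached the lower quartile of peaks at starts, 8.65. Of the Akap1 member, 86.4% was masked as repeats in the reference.

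Short motifs were counted in the 300 bases at the middle of each peak, on both strands, and no spelled motif lies inside another. The GC box (GGGCGG, bound by SP factors) was in 27.0% of members (24.9 to 29.2), 41.8% of peaks at starts, 12.9% of intronic peaks and 35.7% of the RefSeq promoters of the same length. It was in 14.5% of the members in the lowest 25% by enrichment and 43.6% of those in the highest 25%. The TATA box (TATAAA) went the other way, in 11.4% of members and 6.42% of peaks at starts, and in 14.5% and 6.99% of the same groups. CAGATG, an E-box of neuronal bHLH factors, was in 21.2% of members, 21.4% of intronic peaks, 13.9% of peaks at starts and 17.2% of promoters. CACCTG, another E-box, was in 18.3, 18.5, 23.4 and 20.2% in that order.

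Motifs of activity-regulated and of other factors were counted in the same way. TGANTCA, the site of AP-1, the dimer that Fos proteins join, was in 6.87% of members, 8.65% of intronic peaks, 4.62% of peaks at starts and 7.81% of promoters. TGACGTCA, the cAMP response element, was in 1.02% of members, 0.847% of peaks at starts and 1.79% of promoters. The ETS site CCGGAAG was in 6.08% of members, 7.54% of peaks at starts and 8.86% of promoters, the MEF2 consensus in 3.31, 1.97 and 3.19%, and the CTCF consensus in 1.45, 0.286 and 0.557%. No test was made of these shares, which move with base composition.

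The 5 strongest members not met in both pools were near Tlr5 (6.20, with 7.22 in pool I), Pmfbp1 (5.69, with 6.46), Shf (5.45), BC067074 (5.28, with 5.32) and Etv3 (5.21, with 8.55), each met in pool I alone. At Shf the pool I peak was 1670 bases wide with an enrichment of 20.4, while the member it met was 349 bases wide, and at Etv3 it was 1228 bases against 398. Both of these pool I peaks also covered a stronger neighbouring member, of 19.2 at Shf and 8.24 at Etv3. Neighbouring members within 5000 bases formed 139 groups of 2 to 5, which held 314 members, and 1346 stood alone.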

How the data were processed

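Peaks came from 4 deposited lists on mm10: pool J, pool I, both pools together, and the replicated list, called on both pools per the text files deposited with the libraries. The sources used here do not give the aligner, the caller, their settings or the treatment of reads from either parental strain, and the depth is unknown. The enrichment value deposited by the authors is a ratio, taken as fold over control since those text files list such tracks. The deposited −log10 q values served as a filter, and the deposited summit offset gave the highest point. Gene models were GENCODE M21. tRNA genes, other transcripts, enhancers, the genome and promoter sequences were RefSeq's, on GRCm38.

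Distances ran from the nearest edge of the peak. A pool value is that of the strongest pool peak overlapping a member by at least 1 base. The denominator of densities is sequence outside gene bodies and start windows, without unsequenced bases. Intervals are 95% Wilson intervals. No p-value was computed, as each pool had 1 list, and pools are given side by side or as mean ± SD. The rule for members was tested on simulated intervals. Values were computed with Python 3.11.15, pandas 2.3.3 and numpy 2.4.6.

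Genes named were, by rule, the 10 strongest and 10 widest members, the 5 of highest CpG ratio, the 5 strongest not met in both pools, the 3 nearest each bound, the 5 genes with most members, all members of activity-regulated genes and the 2 strongest of each other list. A few are not reported here, and others (the 10 strongest with no RefSeq feature, the member on Y, those over enhancers and tRNA genes) were added after their values were seen. The members and the 14 gene lists were chosen with earlier results of these data known. Alternatives are given at the end.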

Additional observations from a re-analysis of the deposited data

How the results depend on the processing

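Stricter filters moved the members most. At a −log10 q of at least 5, 82.8% of the members were met in both pools, with a median width of 639 bases, enrichment of 5.80 and CpG ratio of 0.498. At 10 or more, 893 members near 756 genes were left, 97.2% of them met in both pools, with 789 bases, 7.47 and 0.509. In the list of both pools together 63.3% were met in both, with 520 bases and 4.56. Distances from the midpoint put 58.6% upstream, and starts of coding transcripts alone 63.8%. The median CpG ratio in 300 bases was 0.506 at the midpoint and, added after seeing the data, 0.519 at the summit. By the midpoint bases, CpG-rich members exceeded the others 1.65 times in median enrichment and 1.52 times in width.

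With 1 pool alone, counts of members ran from 1197 to 1507 and of nearest genes from 999 to 1222. Median width ran from 618 to 646 bases, enrichment from 5.52 to 5.77, CpG ratio from 0.475 to 0.494 and the upstream share from 59.3 to 59.7%, so that width, enrichment and the upstream share of both single pools lay above those of the replicated list. The CpG-rich to other ratios, added later, were 1.41 to 1.53 for enrichment and 1.20 to 1.27 for width. Densities per Mb, also added, were 3.33 to 4.10, 3.23 to 4.10, 2.76 to 3.65 and 2.73 to 3.24 over the 4 bins. Leaving out the tRNA members, also added, put each of these results within the spread of the pools, the interval of its share or 1.5 times its count. Over the settings tried, tRNA genes met by a member numbered 78 to 90 and activity-regulated genes nearest to one 9 to 12. The share of members met by a peak in both pool lists, which for the list of 1 pool means met in the other, ran from 72.9% (pool I's members) to 92.6% (pool J's). No paired analysis was possible because the labels' numbers name technical replicates within a pool and each pool has 1 list. Depth is unknown, so whether a weak member is missing from a pool list for want of reads was not tested.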
